A study of Homo sapiens with 12 samples.

Results

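The 34 genes described here encode the folding, quality control and degradation machinery of the endoplasmic reticulum (ER) together with sensors of ER stress. They were chosen by name, with earlier results of these data known, so the shares of called genes below are descriptions. Each name was found once among the 78932 genes of the kava table and once among the 35697 genes of the siRNA table, and all 34 passed the filter on low values in both. They comprise 9 chaperones and co-chaperones, 3 genes of the calnexin and calreticulin cycle, 8 genes of disulfide bond formation, 9 genes of ER-associated degradation, 3 stress sensors and effectors, and 2 subunits of the translocation channel.

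The cells were BEAS-2B, an immortalised human bronchial epithelial line of wild-type genotype, so every value comes from a single line. All 12 libraries came from cells given hexavalent chromium, a lung carcinogen, as K2Cr2O7 at 0.25 µM for 20 weeks, and no library without chromium was analysed here. The vehicle group had 0.05% DMSO during those weeks and the kava group had 25 µg/ml of kava, an extract of the pepper plant Piper methysticum. The control siRNA and SNRPA1 siRNA groups were vehicle cells transfected with 100 nM of non-targeting oligonucleotides or of a pool against SNRPA1, a U2 snRNP protein of the spliceosome, and were collected after 48 h. Each group had 3 libraries, and the labels do not say whether these were separate cultures, so p-values measure the spread between libraries, which may be technical.

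Secreted and membrane proteins enter the ER through the Sec61 channel, fold there with the help of chaperones such as BiP (HSPA5), and are joined by disulfide bonds and checked through their sugar chains. Proteins that fail to fold are moved back across the membrane and degraded in the cytosol. When unfolded proteins accumulate, the sensors IRE1 (ERN1), ATF6 and PERK (EIF2AK3) start the unfolded protein response. IRE1 splices the mRNA of the transcription factor XBP1, and ATF6 and XBP1 raise many of the genes in this set. The values below are totals per gene, so they do not separate the spliced from the unspliced XBP1 mRNA.

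ATF6 and XBP1 bind the ER stress response elements ERSE (CCAAT, then 9 bases of any kind, then CCACG) and ERSE-II (ATTGG, then 1 base of any kind, then CCACG), so the promoters of the members were searched for both on both strands. A RefSeq window of 250 bases before to 50 bases after the transcription start (GRCh38.p14) was at hand for 32 of the 34 members, and PDIA3 and DERL1 were not searched. An ERSE or ERSE-II was found for 11 of these 32 members (34.4%) and for 44 of the 27305 genes with a window (0.161%). The ERSE was found for CALR, CANX, CRELD2, ERO1B, HSP90B1, HSPA5, PDIA6 and XBP1, and the ERSE-II for HERPUD1, HYOU1 and SDF2L1. The XBP1 element UPRE (TGACGTGG) was found for DNAJC10 and HYOU1, against 0.927% of all genes, and in HYOU1 it overlapped an ERSE-II by position. The cAMP response element CRE (TGACGTCA), found for 2.25% of all genes, was in no member window. These matches describe the letters in each window and show no binding. Many of the 34 genes are known targets of ATF6 and XBP1, so a higher share among them was foreseeable. That share is a description and was not tested. The 250 bases before the start are printed for the 6 members with a match and the smallest adjusted p-values below, 5′ to 3′ on the strand of the gene, with the ERSE or ERSE-II in capitals. A match on the opposite strand reads CGTGG first.
CANX, chr5:179698679-179698928, plus strand: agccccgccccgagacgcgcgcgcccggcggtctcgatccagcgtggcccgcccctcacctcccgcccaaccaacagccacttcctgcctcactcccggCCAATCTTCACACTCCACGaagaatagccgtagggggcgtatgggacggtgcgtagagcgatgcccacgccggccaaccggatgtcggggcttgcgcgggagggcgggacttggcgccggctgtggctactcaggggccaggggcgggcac
CALR, chr19:12938359-12938608, plus strand: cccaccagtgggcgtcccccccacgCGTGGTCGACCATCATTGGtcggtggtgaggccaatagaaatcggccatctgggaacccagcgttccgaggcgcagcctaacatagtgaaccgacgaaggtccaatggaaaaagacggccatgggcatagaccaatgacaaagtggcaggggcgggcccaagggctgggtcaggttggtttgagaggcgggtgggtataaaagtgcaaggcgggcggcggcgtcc
HSPA5, chr9:125241344-125241593, minus strand: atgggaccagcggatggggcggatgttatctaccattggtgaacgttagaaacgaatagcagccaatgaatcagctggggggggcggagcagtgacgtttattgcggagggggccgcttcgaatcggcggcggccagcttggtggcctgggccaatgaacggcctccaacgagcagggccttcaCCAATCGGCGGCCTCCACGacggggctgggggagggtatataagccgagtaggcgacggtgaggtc
ERO1B, chr1:236281959-236282208, minus strand: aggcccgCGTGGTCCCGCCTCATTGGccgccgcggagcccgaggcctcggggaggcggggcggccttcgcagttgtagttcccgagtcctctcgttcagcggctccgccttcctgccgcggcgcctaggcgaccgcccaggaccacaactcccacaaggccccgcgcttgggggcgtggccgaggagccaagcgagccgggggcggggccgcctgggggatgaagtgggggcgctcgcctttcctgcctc
HYOU1, chr11:119057206-119057455, minus strand: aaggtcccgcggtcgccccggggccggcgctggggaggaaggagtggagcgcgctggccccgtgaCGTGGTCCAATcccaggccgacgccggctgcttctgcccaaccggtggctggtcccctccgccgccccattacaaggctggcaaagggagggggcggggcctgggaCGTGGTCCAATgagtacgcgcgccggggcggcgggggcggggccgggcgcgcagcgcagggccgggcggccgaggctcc
HERPUD1, chr16:56931892-56932141, plus strand: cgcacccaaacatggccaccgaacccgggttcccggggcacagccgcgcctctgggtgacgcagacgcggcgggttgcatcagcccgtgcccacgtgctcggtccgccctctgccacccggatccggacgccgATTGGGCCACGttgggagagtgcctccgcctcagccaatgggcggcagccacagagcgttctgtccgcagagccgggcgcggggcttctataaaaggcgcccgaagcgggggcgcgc
HYOU1 held 2 copies of the ERSE-II, both on the opposite strand, and HERPUD1 held 1 copy on the strand of the gene.

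**Figure D1:**
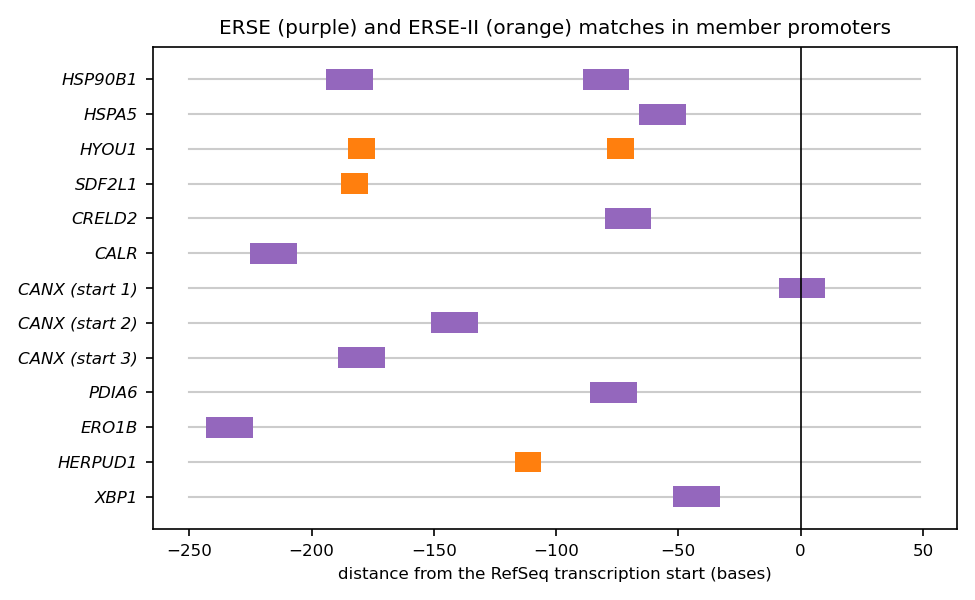
Positions of ERSE (purple) and ERSE-II (orange) matches relative to the RefSeq transcription start, in bases, in the windows (grey lines) of the 11 members with a match. CANX has 3 annotated starts whose windows hold the same site, and HSP90B1 and HYOU1 each have 2 sites.

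With kava, 14 of the 34 genes rose (41.2%) and 0 fell, by limma on log2(TPM + 1) at a Benjamini-Hochberg adjusted p under 0.05. Over all 13866 tested genes, 16.3% rose and 15.6% fell. The median log2 fold change of the 34 genes was 0.10, against -0.01 over all tested genes, and 28 of the 34 changes were positive. All 3 kava libraries lay above all 3 vehicle libraries for 17 of the 34 genes and below them for DNAJC10 and ATF6, where 22.6% and 24.6% of all tested genes did so. The rises were found among chaperones (5 of 9), the calnexin and calreticulin cycle (2 of 3), disulfide bond formation (3 of 8) and degradation (4 of 9), and 0 of 3 sensors and 0 of 2 channel subunits were called. The kava values are TPM, transcript levels scaled by length and to the same sum in every library, and the sequencing depth behind them is unknown.

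**Figure D2:**
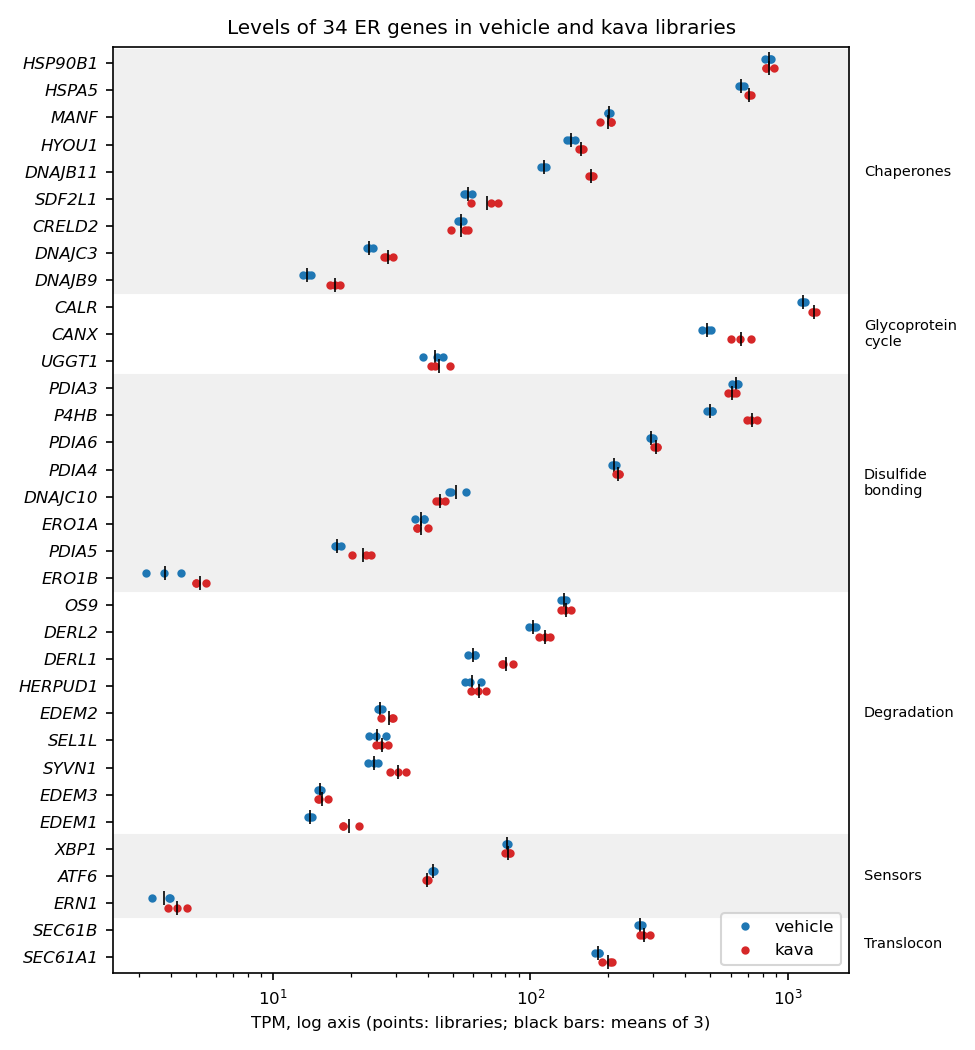
TPM (log axis) of the 34 genes in the 3 vehicle (blue) and 3 kava (red) libraries, with group means as black bars and genes ordered by role and level. The genes run from CALR at 1147 TPM to ERN1 at 3.78 TPM in the vehicle mean, and P4HB, CANX and DNAJB11 show red points well to the right of the blue ones.

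Taken as a sum, the 34 genes held 6675, 6490 and 6545 TPM in vehicle replicates 1, 2 and 3 and 7229, 7286 and 7401 TPM in kava replicates 1, 2 and 3. The kava libraries were all above the vehicle libraries, with a mean of 7305 ± 87.8 against 6570.3 ± 95.3 TPM (SD, n = 3). The difference of the means, 734.8 TPM, was 11.2% of the vehicle sum. P4HB made up 30.7% of it, CANX 23.5% and CALR 15.7%, so these 3 abundant genes made up 69.9%.

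Among the chaperones, the strongest rise was that of DNAJB11 (ERdj3, ENSG00000090520, hg38 chromosome 3 from 186567403 to 186585800), a J-domain protein that hands unfolded clients to BiP. It stood at 113, 115 and 110.2 TPM with vehicle and at 173, 169 and 175 TPM with kava. The groups were far apart, with a log2 fold change of 0.61 ± 0.0345 (SE, limma adjusted p = 2.94e-05). DNAJB9 (ERdj4), a J-domain protein that also restrains IRE1, stood at 13.6, 13.1 and 14.0 TPM with vehicle and 18.2, 16.7 and 17.4 TPM with kava, a rise of 0.34 ± 0.0548 (limma adjusted p = 0.00342). DNAJC3 (p58IPK), a further J-domain co-chaperone, stood at 24.4, 23.1 and 23.5 TPM and at 27.0, 29.2 and 27.4 TPM with kava (0.23 ± 0.0488, limma adjusted p = 0.0112). In both genes every kava library was above every vehicle library.

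BiP itself moved little. HSPA5 stood at 675, 649 and 659 TPM with vehicle and 699, 707 and 719 TPM with kava, a log2 fold change of 0.10 ± 0.0319 (limma adjusted p = 0.0490). The groups were next to each other without overlap, and the call was held in 4 of 14 other settings and in 0 of the 6 fits without 1 library. HYOU1 (GRP170), a nucleotide exchange factor of BiP, stood at 149, 143 and 139 TPM with vehicle and 154, 158 and 161 TPM with kava (0.13 ± 0.0396, limma adjusted p = 0.0369). Its call was held in 6 of 14 other settings.

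For the other 4 chaperones the test was not passed. HSP90B1 (GRP94), the ER member of the HSP90 family, had the second highest vehicle level of the set, 844 ± 24.1 TPM (SD, n = 3), and 844 ± 32.5 TPM with kava. SDF2L1, a partner of ERdj3, had 56.3, 59.4 and 55.4 TPM with vehicle and 75, 70.4 and 58.8 TPM with kava, so kava replicate 3 fell within the vehicle range (0.24 ± 0.0857, limma adjusted p = 0.0650). MANF and CRELD2, a pair of small ER proteins known as targets of the unfolded protein response, had log2 fold changes of -0.01 ± 0.0469 and 0.01 ± 0.0611, with overlapping groups.

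In the calnexin and calreticulin cycle, lectin chaperones hold glycoproteins while they fold. CANX, the membrane-bound lectin (ENSG00000127022, chromosome 5 from 179678628 to 179731622), stood at 504, 465 and 491 TPM with vehicle and 605, 655 and 717 TPM with kava. Every kava library was above the highest vehicle library, and the log2 fold change was 0.43 ± 0.0643 (limma adjusted p = 0.00225). CALR, the soluble lectin and the most abundant of the 34 genes, stood at 1170.3, 1147 and 1124 TPM and at 1243, 1258 and 1287 TPM with kava (0.14 ± 0.0327, limma adjusted p = 0.0162), a call held in 8 of 14 other settings. UGGT1, the sensor enzyme that sends misfolded glycoproteins back for another round, had overlapping groups and a log2 fold change of 0.05 ± 0.0865.

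Among the genes of disulfide bond formation, P4HB rose most. P4HB is the founding protein disulfide isomerase and also a subunit of collagen prolyl 4-hydroxylase (ENSG00000185624, chromosome 17 from 81843159 to 81860624, minus strand). It stood at 506, 506 and 486 TPM with vehicle and 758, 721 and 696 TPM with kava, with no overlap (0.54 ± 0.0411, limma adjusted p = 0.000111). PDIA5, a lower-level isomerase, stood at 17.6, 17.4 and 18.4 TPM and at 20.2, 24.1 and 23.0 TPM with kava (0.31 ± 0.0696, limma adjusted p = 0.0126). ERO1B, an oxidase that recharges the isomerases, stood at 3.76, 3.22 and 4.38 TPM and at 5.04, 5.48 and 5.03 TPM with kava (0.37 ± 0.102, limma adjusted p = 0.0279), a call held in 7 of 13 other settings.

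The remaining 5 genes of that role were not called. PDIA4 and PDIA6 differed by 0.05 ± 0.0322 and 0.06 ± 0.0310 with kava libraries just above the vehicle ones, while PDIA3 (ERp57), the partner of both lectins, differed by -0.04 ± 0.0403 with overlap. ERO1A, the main oxidase, stood at 37.5 ± 1.72 TPM with vehicle and 37.5 ± 2.18 TPM with kava. DNAJC10 (ERdj5), a reductase that unfolds clients for degradation, was lower in every kava library, at 42.8, 46.6 and 44.0 TPM against 48.5, 49.3 and 56.0 TPM with vehicle. Its log2 fold change of -0.20 ± 0.0643 had a limma adjusted p of 0.0510, and it was called lower only when genes under a mean of 5 TPM were left out, with an adjusted p of 0.0427.

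In ER-associated degradation, EDEM1 led. EDEM1 takes part in the mannose trimming that marks glycoproteins for disposal (ENSG00000134109, chromosome 3 from 5187646 to 5219958). It stood at 13.7, 13.9 and 14.1 TPM with vehicle and 18.7, 18.8 and 21.6 TPM with kava (0.47 ± 0.0654, limma adjusted p = 0.00170). The other family members EDEM2 and EDEM3 were not called, at 0.11 ± 0.0539 and 0.02 ± 0.0534. SYVN1 (HRD1), the ubiquitin ligase of the pathway, stood at 24.8, 23.3 and 25.6 TPM and at 30.6, 32.8 and 28.4 TPM with kava (0.30 ± 0.0641, limma adjusted p = 0.0102). Its adaptor SEL1L differed by 0.06 ± 0.0682, with overlapping groups.

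Both derlins, membrane proteins of the export channel for degradation, rose. DERL1 stood at 57.2, 60.7 and 61.2 TPM with vehicle and 78.1, 85.4 and 77.5 TPM with kava, a wide gap (0.42 ± 0.0512, limma adjusted p = 0.000941). DERL2 stood at 99.1, 105 and 104 TPM and at 119, 114 and 109 TPM with kava, a narrow gap (0.15 ± 0.0460, limma adjusted p = 0.0430), and its call was held in 5 of 14 other settings. OS9, the lectin that recognises trimmed glycans, and HERPUD1, a stress-induced scaffold of the ligase complex, differed by 0.02 ± 0.0421 and 0.08 ± 0.0686, with overlapping groups. DNAJB9, DNAJB11, DNAJC3, CANX, P4HB, PDIA5, EDEM1, SYVN1 and DERL1 kept their call in every one of the 14 other settings, whereas HSPA5, HYOU1, CALR, ERO1B and DERL2 lost it in some.

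The sensors showed small differences. ATF6 stood at 41.4, 41.8 and 42.4 TPM with vehicle and 39.6, 39.3 and 39.9 TPM with kava, slightly lower without overlap (-0.08 ± 0.0368, limma adjusted p = 0.151). XBP1 stood at 80.4, 81.5 and 81.2 TPM and at 83.7, 79.9 and 82.3 TPM with kava, with overlap (0.02 ± 0.0355). ERN1 was the least abundant of the 34, at 3.99, 3.39 and 3.95 TPM and 3.89, 4.61 and 4.21 TPM with kava (0.13 ± 0.0906, limma adjusted p = 0.303). EIF2AK3, the sensor outside the set, stood at 15.5 ± 0.437 TPM with vehicle and 17 ± 2.84 TPM with kava (0.11 ± 0.105, limma adjusted p = 0.449). In the Sec61 channel, SEC61A1 differed by 0.13 ± 0.0431 (limma adjusted p = 0.0537) and SEC61B by 0.05 ± 0.0408.

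Of the 11 members with an ERSE or ERSE-II, 5 rose with kava, and their median log2 fold change was 0.10. Of the 21 searched members with neither element, 8 rose, with a median of 0.11. Over all 13866 genes tested with kava, 16.3% rose. With SNRPA1 siRNA, 1 of the 11 rose and 1 fell by edgeR, and 3 of the 21 rose and 0 fell. Over all 13772 genes tested there, 4.89% rose and 7.29% fell.

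**Figure D3:**
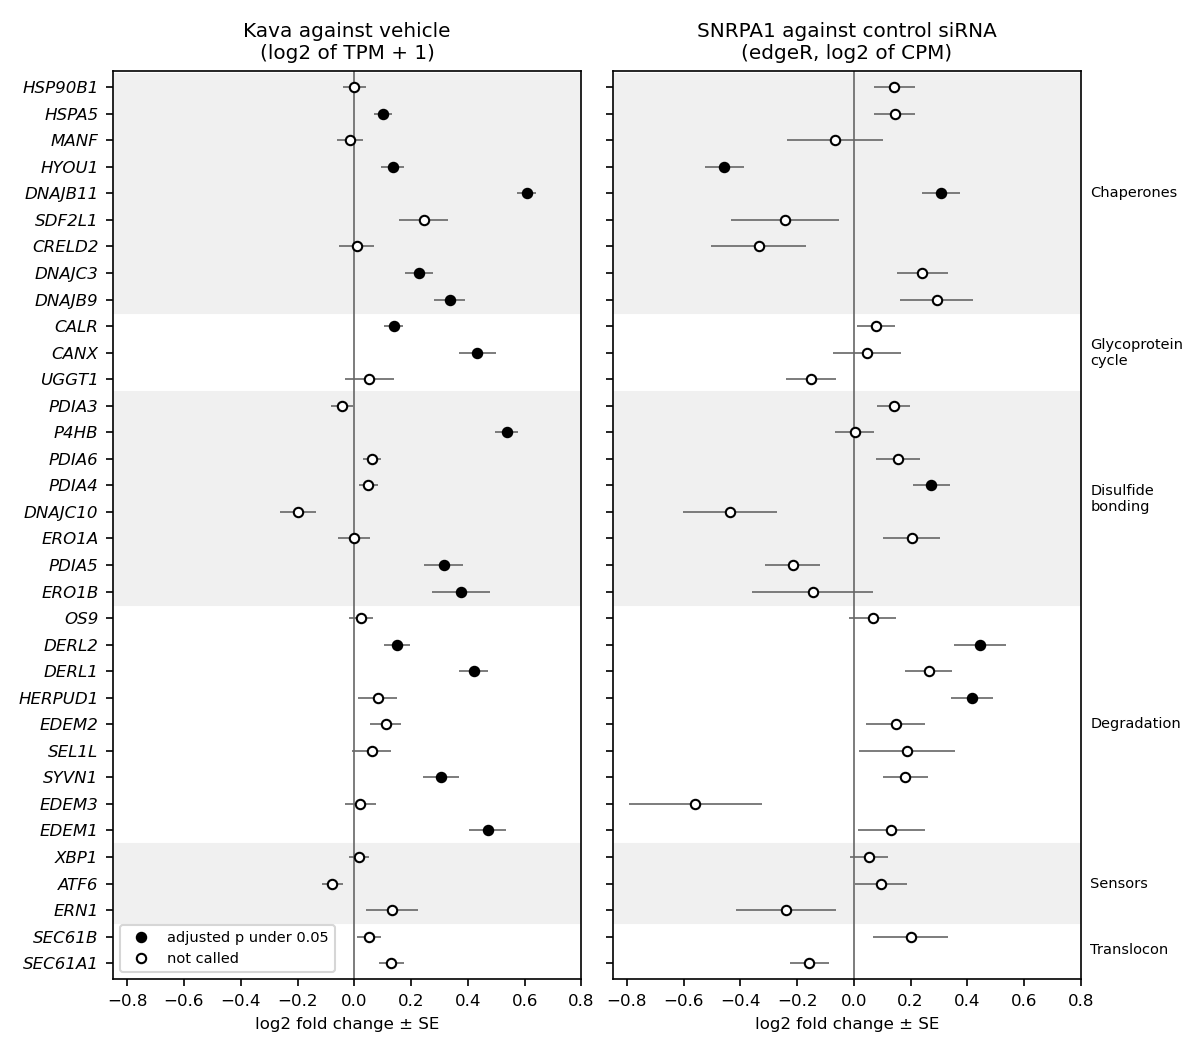
Log2 fold change ± SE of the 34 genes with kava (left) and with SNRPA1 siRNA (right), with filled points for an adjusted p under 0.05. With kava 14 filled points lie right of 0 and 0 left of it. With the siRNA 4 lie right and 1, HYOU1, lies left.

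Several of the genes that rose most lie among neighbours that rose as well. For each member, the tested genes within 2 Mb on either side were examined, a distance chosen after values were seen. Around P4HB, 55 of 72 neighbours rose with kava and 0 fell, with a median log2 fold change of 0.38. Around DNAJB11, 14 of 23 rose and 0 fell (median 0.34). Around DERL1, 12 of 17 rose and 0 fell (median 0.28), and around CANX, 12 of 35 rose and 0 fell (median 0.21). The 4 genes themselves stood 0.14 to 0.27 above the medians of their neighbours on the log2 scale.

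These 4 had a neighbour median above 0.2. For the other 10 genes that rose, the median of the neighbours lay between -0.12 and 0.16. The highest of these was that of ERO1B, where 7 of 19 neighbours rose and 1 fell. EDEM1, the extreme case, rose by 0.47 while its 5 neighbours had a median of -0.12. SDF2L1, not called at 0.24, stood among 47 neighbours with a median of 0.26, of which 21 rose. ERO1A, with group means of 37.5 TPM in both, stood among 22 neighbours of which 19 fell (median -0.45). Over the 34 members, 28 stood above the median of their neighbours and 6 below, with a median difference of 0.13. With SNRPA1 siRNA, 23 stood above and 11 below, with a median difference of 0.11. How many of all tested genes stood above their own neighbours was not counted. The part of these neighbourhoods in the changes of the members was not tested.

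**Figure D4:**
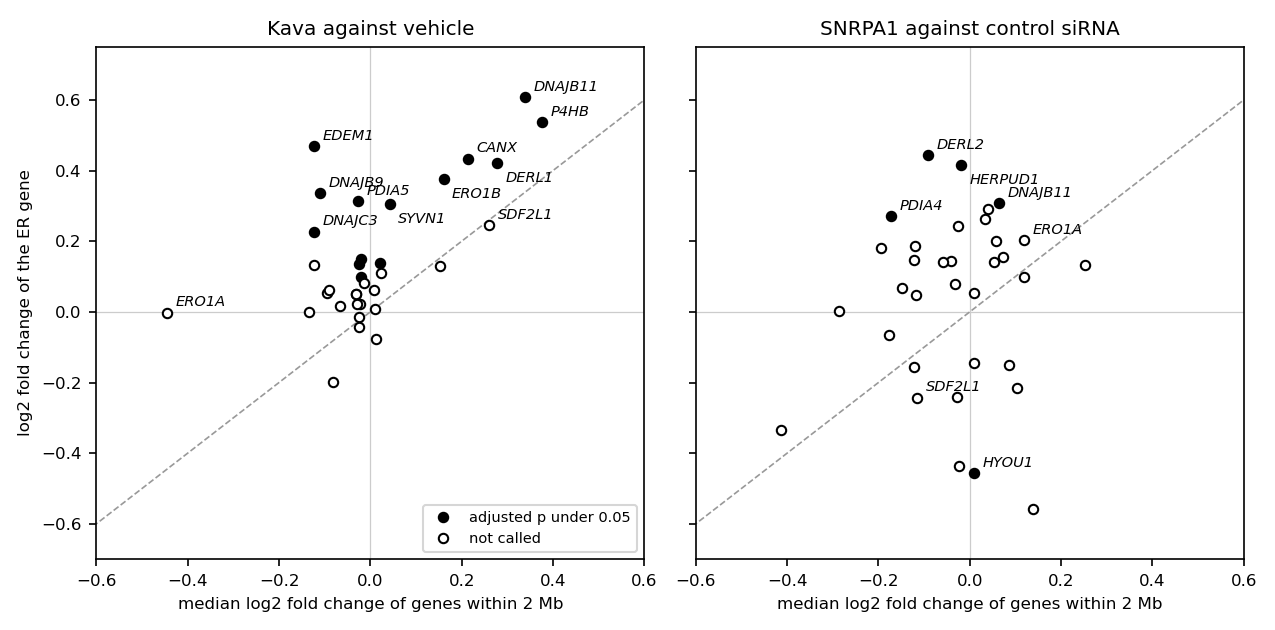
Log2 fold change of each of the 34 genes against the median log2 fold change of the tested genes within 2 Mb of it, for kava (left) and SNRPA1 siRNA (right). The dashed line marks equal values and filled points an adjusted p under 0.05. With kava P4HB, DNAJB11, DERL1 and CANX lie to the right, at neighbour medians of 0.21 to 0.38, and EDEM1 lies at -0.12.

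In the siRNA experiment the targeted transcript was lower, with SNRPA1 at 62.1 ± 4.68 CPM in control and 21.98 ± 1.499 CPM in SNRPA1 siRNA libraries (SD, n = 3; log2 fold change -1.50 ± 0.0980, edgeR quasi-likelihood adjusted p = 0.00495). In the kava experiment SNRPA1 was lower by a smaller log2 fold change of -0.24 ± 0.0359 (limma adjusted p = 0.00227). CPM are counts scaled by library total and TMM, from libraries of 55003534 to 65385258 counted reads, and they are not scaled by length. Each of the 34 genes had at least 150 reads in every siRNA library. A single library stood apart. The chi-square per degree of freedom between control siRNA replicate 1 and the other controls was 139 and 102, against 17.8 between those others. In that library shorter genes read higher and longer genes lower. The Spearman correlation between deviation and length was -0.44 across 13772 genes and -0.61 across the 34, which are values across genes within a library. Length here is the FPKM length, the one implied by a gene's counts, its FPKM and the library totals. It is not an annotated transcript length. Each deviation is from the mean log2 value of the other libraries of the same group, so replicate 1 is part of the reference of the other controls. In control siRNA replicates 2 and 3 the correlation was 0.40 and 0.32 over all genes and 0.62 and 0.42 over the 34. In the SNRPA1 siRNA libraries it ran from -0.21 to 0.24 over all genes and from -0.54 to 0.52 over the 34. The calls are therefore given with and without control siRNA replicate 1, and single values where they differ most.

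With SNRPA1 siRNA, 4 of the 34 genes rose (11.8%) and 1 fell (2.94%), by the edgeR quasi-likelihood test at a Benjamini-Hochberg adjusted p under 0.05. Over all 13772 tested genes, 4.89% rose and 7.29% fell, that is 673 and 1004 genes, and with scaling by library totals alone 385 and 1384 genes. The median log2 fold change of the 34 genes was 0.11, against -0.00 over all tested genes, and 23 of 34 were positive. An unadjusted p under 0.05 was reached by 10 of the 34 and by 30.8% of all tested genes. The SNRPA1 siRNA libraries were all above the controls for 13 genes and all below for 4, where 18.3% and 20.4% of all tested genes were so. Without control siRNA replicate 1, 8 of the 34 rose and 4 fell, where 16.2% and 16.9% of 13729 tested genes did so, 33.1% in all. With any 1 SNRPA1 siRNA library left out, 0 of all tested genes were called.

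HYOU1 (ENSG00000149428, chromosome 11 from 119044188 to 119057227, minus strand) fell, in contrast to its small rise with kava. It stood at 295, 314 and 304 CPM with control siRNA and 227, 226 and 212 CPM with SNRPA1 siRNA. The groups were far apart (log2 fold change -0.46 ± 0.0684, edgeR adjusted p = 0.0137), and the fall was -0.48 ± 0.0518 without control siRNA replicate 1 (edgeR adjusted p = 0.00116). Its 42 tested neighbours had a median log2 fold change of 0.01.

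The 4 genes that rose were DERL2, HERPUD1, DNAJB11 and PDIA4. DERL2 (ENSG00000072849, chromosome 17 from 5471254 to 5486178, minus strand) stood at 55.1, 48.5 and 47.4 CPM with control siRNA and 70.9, 64.6 and 69.8 CPM with SNRPA1 siRNA (0.44 ± 0.0906, edgeR adjusted p = 0.0275). HERPUD1 (ENSG00000051108, chromosome 16 from 56932142 to 56944864) stood at 54.0, 58.1 and 58.7 CPM and at 75.5, 78.0 and 74.4 CPM (0.42 ± 0.0751, edgeR adjusted p = 0.0207). Both had a clear gap between the groups. DNAJB11 stood at 85.1, 89.0 and 88.0 CPM and at 107, 110.4 and 107 CPM (0.31 ± 0.0682, edgeR adjusted p = 0.0331). PDIA4, a disulfide isomerase of the BiP complex (chromosome 7 from 149003062 to 149028662, minus strand), stood at 309.6, 326 and 335 CPM and at 397, 390.1 and 385 CPM (0.27 ± 0.0651, edgeR adjusted p = 0.0399). In each the lowest SNRPA1 siRNA library was above the highest control. Their neighbours within 2 Mb had medians between -0.17 and 0.06. All 5 calls held without control siRNA replicate 1, with edgeR adjusted p of 0.00567 for DNAJB11, 0.00651 for PDIA4, 0.00255 for HERPUD1 and 0.00159 for DERL2. Over 14 other settings the call of HYOU1 and of HERPUD1 held in 9, that of DERL2 in 8, and those of DNAJB11 and PDIA4 in 5.

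Without control siRNA replicate 1, a further 4 genes rose and 3 fell. In that fit the log2 fold change was related to gene length over all genes (Spearman -0.18, against 0.02 with all libraries). The part of length in these calls was not tested. The 4 that rose were CALR, PDIA3, DERL1 and SEC61B. SEC61B, the small β subunit of the channel, with an FPKM length of 1.33 kb the second shortest of the 34 genes, stood at 83.6 CPM in control replicate 1, at 60.3 and 64.0 CPM in the others and at 78.5, 76.3 and 84.1 CPM with SNRPA1 siRNA. Its log2 fold change was 0.20 ± 0.132 with all libraries (edgeR adjusted p = 0.349) and 0.36 ± 0.0652 without replicate 1 (edgeR adjusted p = 0.00614). DERL1 differed by 0.26 ± 0.0818 with all libraries (edgeR adjusted p = 0.0775) and was above the controls in every SNRPA1 siRNA library. DESeq2 also called it higher.

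The 3 that fell without that replicate were EDEM3, DNAJC10 and UGGT1, with FPKM lengths of 20.5, 27.6 and 12.5 kb. EDEM3 stood at 14.4, 28.3 and 21.3 CPM in the controls and 15.5, 14.8 and 13.2 CPM with SNRPA1 siRNA, so that control replicate 1 lay among the knockdown values. Its log2 fold change was -0.56 ± 0.233 with all libraries (edgeR adjusted p = 0.156) and -0.78 ± 0.136 without that replicate (edgeR adjusted p = 0.00517). DNAJC10 stood at 68.1, 104 and 95.2 CPM and at 71.2, 68.4 and 57.5 CPM, with the same overlap through replicate 1 (-0.44 ± 0.166, edgeR adjusted p = 0.127, and -0.60 ± 0.0934, adjusted p = 0.00345 without it). UGGT1 differed by -0.15 ± 0.0885 and, without it, by -0.21 ± 0.0669 (edgeR adjusted p = 0.0486).

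SDF2L1, MANF and CRELD2, with 52.4, 78.5 and 73.2 CPM, were also high in control siRNA replicate 1, against at most 33.4, 54.2 and 51.6 CPM in the other controls. CRELD2 differed by -0.33 ± 0.168 with all libraries and by -0.13 ± 0.0923 without replicate 1, and was called in neither fit. CANX was low in that replicate, at 482 CPM against 665 and 619 CPM, and stood at 635, 602 and 587 CPM with SNRPA1 siRNA. Its log2 fold change was 0.05 ± 0.120 with all libraries and turned to -0.08 ± 0.0533 without that replicate, called in neither fit. SEL1L was low there too, at 35.1 CPM against 55.9 and 50.5 CPM, with 0.19 ± 0.170 over all libraries and 0.01 ± 0.0786 without it.

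**Figure D5:**
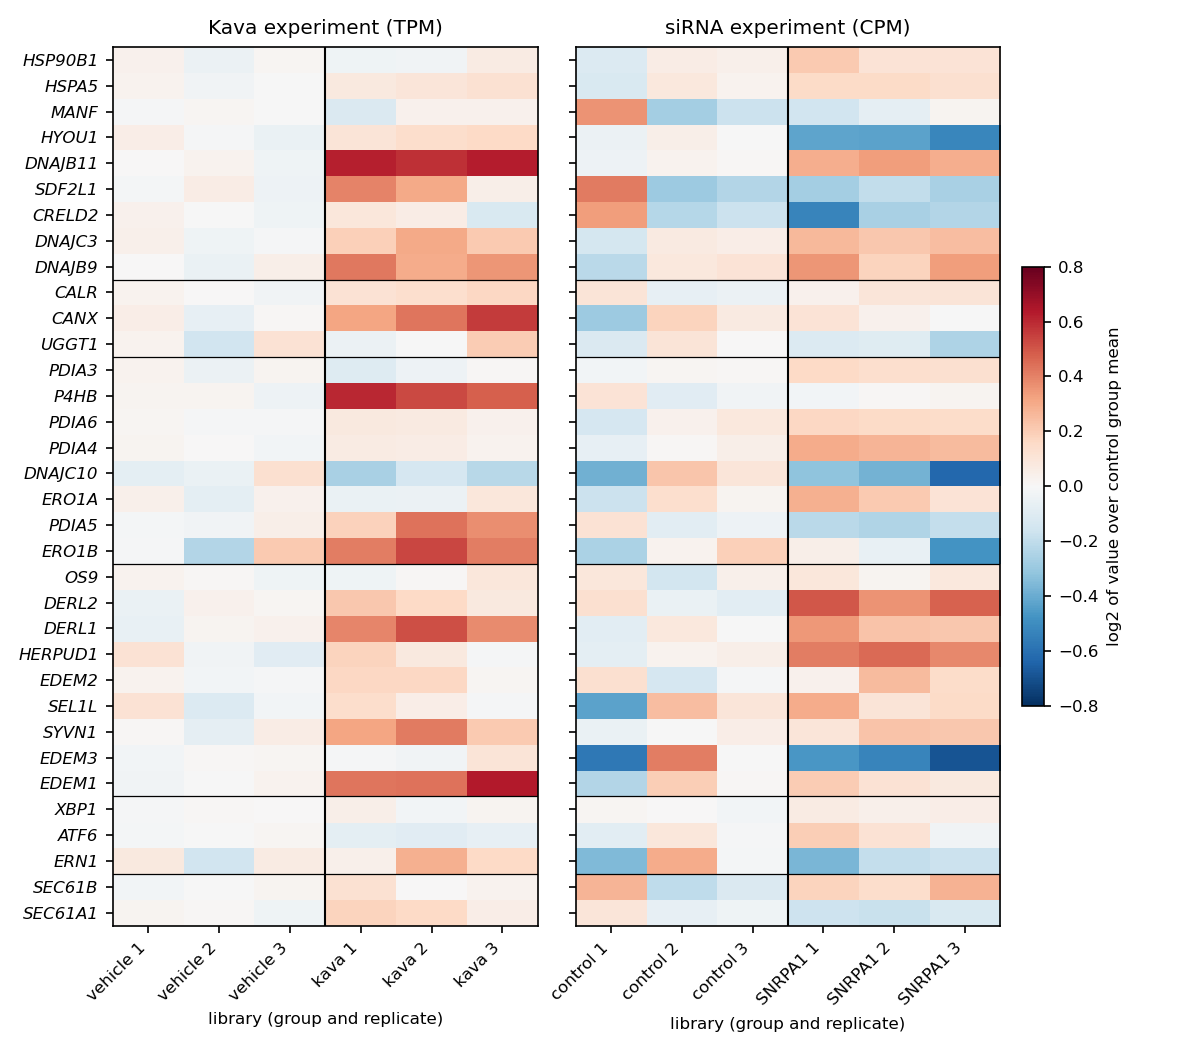
Log2 of each library's value over the control group mean for the 34 genes (rows, ordered by role), in TPM for kava (left) and CPM for the siRNA (right), with red above and blue below the control mean. In control siRNA replicate 1 SDF2L1, MANF, CRELD2 and SEC61B are red and EDEM3, SEL1L, DNAJC10 and CANX are blue.

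Of the abundant genes, HSPA5, HSP90B1 and P4HB were not called by edgeR in the siRNA experiment, with or without control replicate 1. CALR was called higher without that replicate (0.13 ± 0.0400, edgeR adjusted p = 0.0374) and not with it. HSPA5 stood at 571, 659 and 632 CPM with control and 689.8, 689 and 678 CPM with SNRPA1 siRNA, above the controls in every library (0.14 ± 0.0722, edgeR adjusted p = 0.226), and the log2 fold change was 0.09 ± 0.0421 without control replicate 1. HSP90B1 stood at 741, 833 and 824 CPM and at 923, 862 and 862 CPM (0.14 ± 0.0715, edgeR adjusted p = 0.226), with 0.09 ± 0.0464 without it. P4HB, which rose most in TPM with kava, stood at 1153, 1000.5 and 1048 CPM and at 1053, 1073 and 1082 CPM, with a log2 fold change of 0.00 ± 0.0696, or 0.06 ± 0.0406 without it. DNAJB9, DNAJC3, PDIA6, SYVN1 and XBP1 were above the controls in every SNRPA1 siRNA library without being called by edgeR, with log2 fold changes between 0.05 and 0.29. DESeq2 called DNAJC3 higher, with an adjusted p of 0.0425. PDIA5 and SEC61A1 were below in every library, at -0.21 ± 0.0972 and -0.16 ± 0.0694, and at -0.16 ± 0.0825 and -0.11 ± 0.0438 without control replicate 1. ATF6 and ERN1 overlapped, at 0.10 ± 0.0916 and -0.24 ± 0.176. Without that replicate they differed by 0.06 ± 0.0772 and -0.39 ± 0.130, the latter with an edgeR adjusted p of 0.0535. EIF2AK3 stood at 11.0, 20.6 and 18.5 CPM with control and at 26.5, 26.2 and 21.6 CPM with SNRPA1 siRNA, above the controls without overlap (0.57 ± 0.229, edgeR adjusted p = 0.145), and differed by 0.34 without control replicate 1 (edgeR adjusted p = 0.0547).

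The levels of the 34 genes were ordered much alike in both experiments. Across the 34 genes, vehicle TPM and control siRNA FPKM had a Spearman correlation of 0.90 and on the log2 scale a Pearson correlation of 0.90, given as a description across genes. Both are scaled by length, but the FPKM length is not an annotated transcript length, so the lengths may differ. HSP90B1, second in vehicle TPM, had an FPKM length of 14.4 kb and stood at 56.6 FPKM, below PDIA4 at 90.9 FPKM. CALR stood first in both, with 388 FPKM in the control siRNA mean, and ERO1B and ERN1 were the lowest pair in both, at 0.235 and 0.572 FPKM. The log2 fold changes of the experiments were only weakly related across the 34 genes (Pearson 0.22, Spearman 0.17). DERL2 and DNAJB11 rose in both experiments, 2 of the 14 that rose with kava and 2 of the 4 that rose with the siRNA. HYOU1 rose with kava and fell with the siRNA, and 18 of the 34 were called in neither. Over all tested genes, 31.9% were called with kava and 12.2% with the siRNA. How many of all tested genes were called in both or in neither was not counted, so these overlaps have no reference. PDIA4 and HERPUD1 were called with the siRNA and not with kava, at 0.05 and 0.08 in the latter. Whether any change differed between the experiments was not tested, since the tables share no library and were normalised apart.

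Beyond the 34, another 135 genes of the same machinery were listed by role, of which 130 were tested in each experiment. These lists too were made with earlier results of these data known. With kava 39 of the 130 rose (30.0%) and 7 fell (5.38%) by limma, where 16.3% and 15.6% of all tested genes did so, and the median log2 fold change was 0.09. The counts by role below are small and are to be read against the same shares. Degradation genes gave 9 of 27 higher and 1 lower, led by NPLOC4 (0.70 ± 0.0363, limma adjusted p = 1.99e-05) and UFD1 (0.64 ± 0.0366), cofactors of the segregase VCP that pulls clients from the membrane. NPLOC4 lies 0.249 Mb from P4HB, and 55 of its 74 neighbours within 2 Mb rose, as did 30 of the 50 neighbours of UFD1. VCP, named after its values were seen, rose by 0.30 ± 0.0364. Other sensors and effectors gave 8 of 20 higher and 0 lower, among them TRIB3 (0.47 ± 0.0869), a pseudokinase induced by ATF4 and CHOP, MBTPS2 (0.37 ± 0.0527), the protease that releases ATF6 from its membrane anchor, and DDIT3 (CHOP), a transcription factor of the PERK arm, at 16.5, 18.1 and 15.9 TPM with vehicle and 22.1, 21.3 and 22.1 TPM with kava (0.36 ± 0.0592).

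Other chaperones gave 7 of 23 higher and 2 lower with kava, with the prolyl isomerases FKBP11 at 0.48 ± 0.0829 and FKBP7 at -0.43 ± 0.0963 and the J-domain protein DNAJC1 at 0.37 ± 0.0526. Other genes of disulfide bond formation gave 5 of 16 higher and 1 lower, with TXNDC15 at 0.52 ± 0.0854, TMX1, a membrane-bound thioredoxin, at -0.39 ± 0.0511 and TXNDC11 at 0.32 ± 0.0723. Genes of the glycoprotein cycle gave 4 of 9 higher and 0 lower, with the glucosidase subunit PRKCSH at 0.25 ± 0.0426, the mannosidase MAN1B1 at 0.23 ± 0.0557 and the cargo receptor LMAN1 at 0.18 ± 0.0389. Targeting and translocation genes gave 5 of 23 higher and 2 lower, with SEC62 at 0.64 ± 0.0790 and the signal recognition particle subunits SRP68 at 0.49 ± 0.0337 and SRP54 at -0.48 ± 0.0402. Several of these also moved with their neighbours, whose medians were 0.43 for SRP68, 0.28 for SEC62, 0.27 for TXNDC15, -0.42 for TMX1 and -0.35 for SRP54. Among 12 genes of oligosaccharyltransferase, the enzyme that attaches N-glycans, RPN1 rose by 0.11 ± 0.0362 and OST4 fell, at -0.13 ± 0.0373.

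With SNRPA1 siRNA, 11 of the 130 rose (8.46%) and 9 fell (6.92%) by edgeR, where 4.89% and 7.29% of all tested genes did so, and the median was 0.11. DDIT3 stood at 10.8, 7.65 and 10.2 CPM with control and 14.7, 15.1 and 14.3 CPM with SNRPA1 siRNA, a rise of 0.62 ± 0.148 (edgeR adjusted p = 0.0393). Of the 20 sensors and effectors, 3 rose and 2 fell, with CREB3L4, a relative of ATF6, at -0.78 ± 0.166 and NFYC, a subunit of the factor that binds CCAAT, at 0.36 ± 0.0760. Among chaperones 3 of 23 rose and 0 fell, the calcium-binding CALU at 0.45 ± 0.115 and RCN1 at 0.32 ± 0.0699 and the collagen chaperone SERPINH1 at 0.34 ± 0.0792. The degradation list gave 1 higher and 2 lower of 27, with FAF2 at 0.44 ± 0.0904, UBE2G2, a ubiquitin-conjugating enzyme, at -0.41 ± 0.0823 and VCP at -0.25 ± 0.0648.

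In the translocation list 1 rose and 3 fell of 23 with the siRNA, with SRP19 at -0.56 ± 0.0928, the signal peptidase subunit SPCS1 at -0.45 ± 0.112 and the receptor subunit SRPRB at 0.41 ± 0.103. Disulfide genes gave 2 higher and 1 lower of 16, TXNDC15 at 0.34 ± 0.0796, TXNDC5 at 0.27 ± 0.0654 and TMX2 at -0.33 ± 0.0665. The glucosidase MOGS fell, at -0.36 ± 0.0910, and OSTC of the oligosaccharyltransferase rose, at 0.44 ± 0.0697, as the only called genes of their lists. Without control siRNA replicate 1, 40 of these other ER genes rose (30.8%) and 17 fell (13.1%), where 16.2% and 16.9% of all tested genes did so.

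The labelled cell type was checked against markers, and the ones named here were picked with their values known. The keratins KRT8 and KRT18 were abundant, at 583 ± 14.6 and 426 ± 8.52 TPM in the vehicle libraries, while CDH1, EPCAM and KRT5 stood at 0.0406, 2.00 and 0.103 TPM. Of the 9 epithelial markers 7 were tested, and with kava 3 rose and 3 fell (limma). KRT7 rose by 1.08 ± 0.0418, the integrins ITGA6 and ITGB4 by 1.03 ± 0.0462 and 0.65 ± 0.0850, and KRT19 fell from 23.5 ± 1.18 to 0.705 ± 0.0309 TPM (-3.85 ± 0.0687, limma adjusted p = 6.83e-07). KRT8 and KRT18 differed by -0.21 ± 0.0361 and -0.11 ± 0.0309, both called lower. The summed epithelial markers held 1226 to 1272 TPM with vehicle and 1334 to 1395 TPM with kava.

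Of the 9 fibroblast markers only 4 were tested. COL1A2 rose from 0.101 ± 0.0554 to 8.54 ± 0.378 TPM (3.12 ± 0.0904, limma adjusted p = 2.73e-06), and COL1A1 fell, from 95.4 ± 4.84 to 86.4 ± 0.490 TPM. The summed level of the 9, 480 to 513 TPM with vehicle and 502 to 530 TPM with kava, was mostly THY1, at 388 ± 14.3 and 397 ± 15.8 TPM. The blood marker HBB and the secretory airway marker SCGB1A1 were at 0 TPM in every library of the kava experiment, but their lists were not. Of the 8 blood markers 1 was tested, and the 8 summed to 6.72 to 8.65 TPM with vehicle and 7.02 to 8.93 TPM with kava. Of the 8 markers of differentiated airway cells 2 were tested. These 8 summed to 747 to 794 TPM with vehicle and 808 to 928 TPM with kava. Nearly all of that came from the 2 tested genes, since the others each had a mean under 1 TPM. In both lists 0 genes were called by limma. In the siRNA experiment none of the 6 epithelial markers tested was called by edgeR, and of the 3 fibroblast markers tested COL1A1 rose, by 0.38 ± 0.0971 (edgeR adjusted p = 0.0464). The part of these marker shifts in the changes of the ER genes was not tested. These are bulk values, in which fewer cells of a type and less RNA per cell cannot be told apart. PDIA3 and HSP90B1 have processed pseudogenes with which their reads may be shared.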

How the data were processed

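RNA selected with oligo(dT) beads was sequenced from 12 libraries in 4 groups of 3. The submitters' processing notes give build hg38 and list StringTie 1.3.4d, HISAT2 2.0.4, DESeq2 and cutadapt 1.9, without saying which applies to which table. The kava and vehicle table holds TPM values as deposited by the authors, whose name for it mentions salmon, so the quantifier could not be settled and depth is unknown. The siRNA table holds FPKM next to raw counts, per the file headers. A single FPKM column whose header lacks the prefix was matched to its sample by its name.

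For kava against vehicle, limma 3.58.1 (R 4.3.3, eBayes with a trend) was fitted to log2(TPM + 1) of the 13866 genes whose mean reached 1 TPM. For SNRPA1 against control siRNA, edgeR 4.0.16 (quasi-likelihood, TMM scaling) was fitted to counts of the 13772 genes whose mean reached 1 CPM. These fits were also run on simulated data with known changes and the same spread in every library. Those data held no library that stood apart, so they cannot show how the fits handle control siRNA replicate 1. Tests were two-sided with Benjamini-Hochberg adjustment over all tested genes, and called genes are those with an adjusted p under 0.05. A fold change in TPM is on the log2(TPM + 1) scale, which understates that of low genes such as ERN1 and ERO1B, and the SE of an edgeR change is its size over the square root of F. Gene positions and neighbours used the coordinates of the siRNA table, and promoters are those of RefSeq. The members and lists were chosen with earlier results of these data known. The text names all 34 members, SNRPA1, EIF2AK3 and up to 3 called genes of each other list with the largest log2 fold change, except that 1 gene this rule takes is not reported here. Alternatives were other scalings, filters, pseudocounts and tools, DESeq2 1.42.0 among them, a replicate block, and each library left out.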

Additional observations from a re-analysis of the deposited data

How the results depend on the processing

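Among the 34 members, no called change turned sign in any setting, and of the other ER genes only counts were computed again. With kava, 9 to 15 members rose over all settings. Without a filter 9 rose, where 1994 of 32472 tested genes rose, against 2261 of 13866 in the main fit. With a minimum mean of 5 TPM 1 of 32 members fell, where 1928 of 10477 tested genes fell. Leaving out 1 library gave 9 to 15 higher members, 1626 to 2213 higher and 1400 to 2099 lower genes among all tested, and 26 to 40 higher and 3 to 6 lower other ER genes. Of these other ER genes 4 fell without a filter, where 1620 of 32472 tested genes fell. Without a mean-variance trend 4 fell, where 1959 of 13866 tested genes fell.

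With SNRPA1 siRNA the calls depended on the fit. Leaving out 1 library gave 0 to 2222 higher and 0 to 2324 lower genes, 0 to 8 higher and 0 to 4 lower members, and 0 to 40 higher and 0 to 17 lower other ER genes. The high ends came without control siRNA replicate 1, and the counts were 0 without any of the 3 SNRPA1 siRNA libraries. Without control siRNA replicate 3, 6 genes rose and 9 fell, of which 0 were members, and without control siRNA replicate 2, 376 rose and 684 fell, with 1 member each way. DESeq2 called 1427 genes higher and 1768 lower, and 25 other ER genes higher. Scaling by library totals alone left 385 genes, 2 members and 5 other ER genes higher. With no filter, 258 of 30764 tested genes rose and 411 fell, 2 members rose, and of the other ER genes 2 rose and 1 fell. By limma on log2(FPKM + 1), 394 genes, 2 members and 6 other ER genes rose. The cause of these shifts was not tested.

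Same-numbered libraries did not deviate together, with correlations of -0.02, -0.11 and 0.09 in the kava and -0.30, 0.06 and -0.12 in the siRNA experiment. With a replicate block, 12 members and 2072 of 13866 tested genes rose with kava. With SNRPA1 siRNA and the block, 0 genes were called in either direction by edgeR. There 2919 genes had an unadjusted p under 0.05 with the block and 4237 without it. Searching for CCAAT and CCACG anywhere in the window gave 20 members with a match in place of 11, against 14.5% of all genes. Depth is unknown for the kava libraries, and each group of 3 limits the power of every test.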
